A study of Mus musculus with 6 samples.

Results

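Astrocytes clear the potassium and glutamate that active neurons release and move water with them, and 9 genes that carry out this work in the mouse brain were followed here: Kcnj10, Kcnj16, Aqp4, Slc4a4, Gja1, Gjb6, Slc1a2, Slc1a3 and Glul. They were chosen by name and matched by gene identifier, 9 of the 36079 genes in the table. All 9 were among the 16009 genes that were tested because their mean reached 0.5 FPKM (fragments scaled to gene length and sequencing depth). The libraries are of bulk messenger RNA from the temporal lobe of epileptic mice. Their epilepsy was induced with kainic acid, a compound that activates glutamate receptors and sets off seizures. The sample labels name the tissue only as brain. For 3 weeks, 3 mice ate chow (CD in the labels) and 3 ate a ketogenic diet (KD), which is rich in fat and poor in carbohydrate. Kainic acid was given in both groups, so the comparison is of diet among epileptic mice. Strain, sex and age are not stated for these mice in the sources used. Each library has its own mouse label, and p-values measure the spread between these 3 and 3 libraries.

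During firing, potassium leaves neurons and glutamate enters the cleft. Astrocytes take up the potassium through inwardly rectifying channels and the glutamate through sodium-driven transporters, turn the glutamate into glutamine, and pass ions and small molecules on to their neighbours through gap junctions. Water and bicarbonate move with these ions, and much of this exchange takes place at the endfeet, the processes that wrap blood vessels. Loss or misplacement of these proteins has been described in human and rodent epilepsy.

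Of the 9 genes, 7 had a lower and 2 a higher fitted level on the ketogenic diet, and none passed the test. Kcnj10, the main astrocyte potassium channel, stood lowest against chow, at 27.8 ± 1.11 FPKM in ketogenic mice against 68.1 ± 39.6 FPKM in chow mice (SD, n = 3 each). Aqp4 and Slc4a4 came next. The glutamate transporter Slc1a2 and glutamine synthetase (Glul) had almost the same mean in both groups. The median log2 change of the 9 was -0.30, beside -0.04 over all tested genes, and 56.9% of all tested genes were lower on the ketogenic diet. In bulk tissue, fewer cells of a type and less RNA per cell cannot be told apart.

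The test was limma's, on log2(FPKM + 0.5), with Benjamini-Hochberg adjustment over all 16009 genes. With a threshold of 0.05 on the adjusted p it called 0 genes higher and 0 lower (0% of those tested), and the smallest adjusted p of any gene was 0.220. Before adjustment, 329 genes (2.06%) were higher and 532 (3.32%) lower at p under 0.05, and among the 9 only Kcnj10. With quantile normalization this split became 403 higher and 410 lower, and with each library centred on its median 490 higher and 379 lower. Limma's voom on recovered reads also called 0 genes, with 290 higher and 567 lower at an unadjusted p under 0.05.

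**Figure D1:**
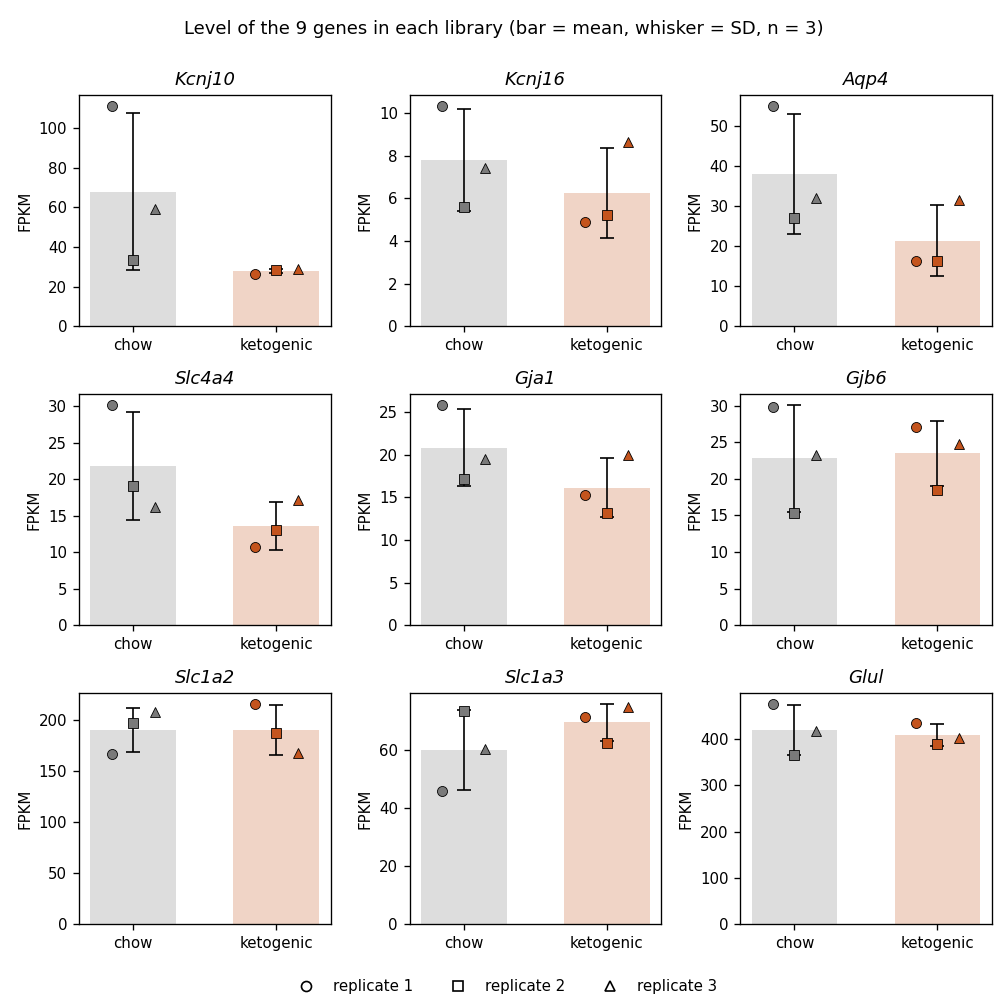
Level of each of the 9 genes in FPKM (vertical axes start at 0) in the 3 chow and 3 ketogenic libraries; points are libraries, bars means and whiskers SD. The 3 ketogenic points of Kcnj10 lie between 26.6 and 28.7 FPKM, below all chow points, while the groups overlap in the other 8 genes.

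The libraries differed in which brain regions they held, and chow replicate 1 stood apart. Thalamic and hypothalamic markers were 2.71 above the mean of the 6 libraries in chow replicate 1, 0.53 above it in chow replicate 3 and between -1.14 and -0.68 in the other 4 (median over 9 genes, log2 scale). Chow replicates 1 and 3 and ketogenic replicate 3 held choroid plexus, whose markers stood 0.96, 1.87 and 1.33 above the mean there and 1.24 or more below it elsewhere. Their defining gene Ttr measured 835, 1883 and 1074 FPKM in these 3 libraries and 3.14 FPKM or less in the others. Striatal markers were high in chow replicate 2 (2.48) and ketogenic replicate 2 (2.28). Recovered reads summed to between 39927217 and 55910355 per library, and the 9 genes had from 923 (Kcnj16 in ketogenic replicate 2) to 159364 (Slc1a2 in ketogenic replicate 1) in each. These reads were worked out from the FPKM values and are known only up to a factor per gene, so they may differ from the true counts.

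Astrocyte markers were read in every library. The cytoskeletal gene Gfap measured between 17.7 and 59.2 FPKM and the folate enzyme Aldh1l1 between 7.84 and 11.6 FPKM. All 15 astrocyte markers, which leave out the 9 genes, passed the filter. Their level was 0.48 in chow replicate 1 and between -0.17 and 0.08 in the other 5 libraries. On the ketogenic diet 11 of the 15 were lower and 4 higher, and the median log2 change was -0.20 and none called. Of these, 2 had non-overlapping groups, both higher, against 4.9% of all tested genes: Htra1, a secreted protease, and Ppp1r3g, a glycogen regulator. They are named because of their values, and their log2 changes were 0.36 and 0.42.

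Kcnj10 (ENSMUSG00000044708) encodes Kir4.1, the inwardly rectifying channel that carries most of the potassium uptake of astrocytes. It measured 111, 33.4 and 59.4 FPKM in chow replicates 1, 2 and 3, and 26.6, 28.2 and 28.7 FPKM in ketogenic replicates 1, 2 and 3. The ketogenic libraries lay close together and below every chow library, while the chow libraries were spread widely. The mean on chow was 2.45 times that on the ketogenic diet, a log2 change of -1.11 ± 0.40 (SE) with a 95% interval from -2.07 to -0.15. The unadjusted p was 0.0299 and limma's adjusted p 0.752. Groups that did not overlap in this direction were found in 7.49% of all tested genes, and Kcnj10 was the only one of the 9.

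The 2 chow libraries with the highest Kcnj10 were also those with the highest thalamic markers. Without chow replicate 1 the log2 change of Kcnj10 was -0.67 (unadjusted p = 0.0338, limma adjusted p = 0.998), and with the thalamic marker level as a covariate it was -0.32 (unadjusted p = 0.0810). With the level of another list as the covariate it was -0.81 (astrocyte markers, unadjusted p = 0.0108), -0.91 (choroid plexus, unadjusted p = 0.0690) or -1.004 (striatum, unadjusted p = 0.0251). Chow replicate 2, at 33.4 FPKM of Kcnj10, had thalamic markers at -0.77, within the range of the ketogenic libraries (-1.14 to -0.68), and the highest striatal markers of the 6 libraries (2.48). In the other 2 chow libraries thalamic markers were above every ketogenic library, so this covariate overlaps with diet. A difference by diet and one by region cannot be told apart with it, for Kcnj10 or for the genes below.

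**Figure D2:**
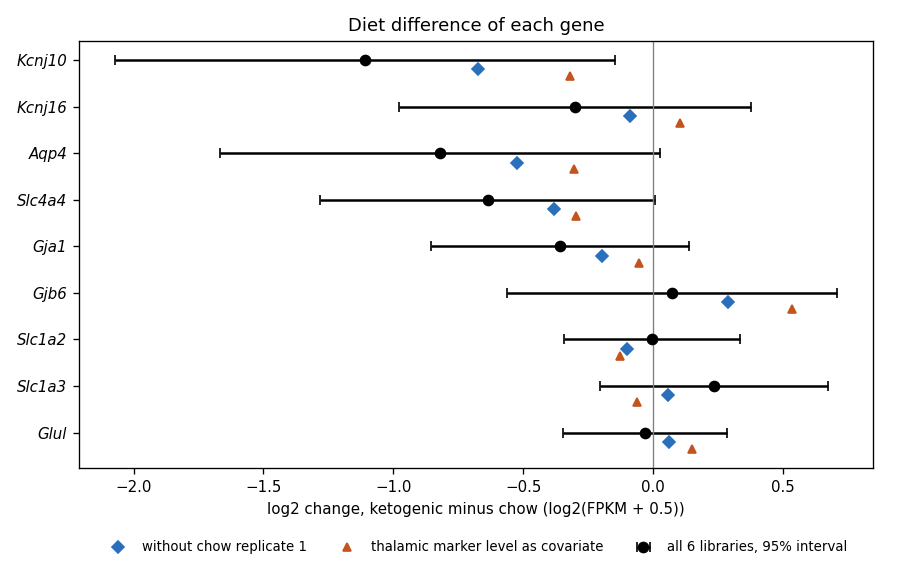
Log2 change of each gene, ketogenic minus chow, on the log2(FPKM + 0.5) scale, with limma's 95% interval (black), without chow replicate 1 (blue diamonds) and with the thalamic marker level as a covariate (orange triangles). Kcnj10 moves from -1.11 to -0.67 and -0.32, and the interval excludes 0 for Kcnj10 alone. The thalamic level was itself higher in chow replicates 1 and 3 than in any ketogenic library.

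The promoters of Kcnj10 and Slc1a2 are shown because these genes had the largest and the smallest diet difference in size among the 9. Each line gives the 250 bases before the annotated start, from RefSeq on build GRCm38.p6, 5′ to 3′, at chr1:172340960-172341209 on the plus strand for Kcnj10 and chr2:102706188-102706437 on the plus strand for Slc1a2. Capitals mark matches to a GC box (GGGCGG), the letters read by the Sp1 family.
Kcnj10: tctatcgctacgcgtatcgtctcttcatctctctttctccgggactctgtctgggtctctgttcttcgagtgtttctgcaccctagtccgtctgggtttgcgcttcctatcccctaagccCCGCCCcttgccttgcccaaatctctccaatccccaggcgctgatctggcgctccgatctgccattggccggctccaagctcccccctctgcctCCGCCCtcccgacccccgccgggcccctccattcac
Slc1a2: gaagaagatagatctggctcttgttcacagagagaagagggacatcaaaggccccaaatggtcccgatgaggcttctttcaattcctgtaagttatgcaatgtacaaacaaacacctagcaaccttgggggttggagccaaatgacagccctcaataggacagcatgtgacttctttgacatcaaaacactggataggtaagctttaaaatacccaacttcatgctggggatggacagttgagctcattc
The Kcnj10 window holds 2 GC boxes and is 62% G and C, and the Slc1a2 window holds none and is 44.8% G and C. GC boxes occur in 32.7% of the 32851 promoter windows of this length. Neither window holds a TATA box (TATAAA, in 12.4% of windows), the short site of the NFI factors (TTGGCA, 12.3%) or the SOX motifs ACAATG (10.7%) and ACAAAG (16.5%), read on both strands. RefSeq promoters were read for 8 of the 9 genes, and Aqp4 was not among them. GC boxes are also present before Glul and Slc1a3 and in part of the windows of Kcnj16 and Slc4a4. They are absent before Gja1 and Gjb6. A relation of these motifs to the diet difference was not tested.

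Kcnj16 (ENSMUSG00000051497) encodes Kir5.1, which forms channels with Kir4.1 and makes them sensitive to pH. It measured 10.3, 5.61 and 7.44 FPKM in chow mice, and 4.87, 5.22 and 8.66 FPKM in ketogenic mice, in replicate order. The groups overlapped, and the highest 3 libraries (chow replicates 1 and 3 and ketogenic replicate 3) were those with choroid plexus markers. The log2 change was -0.30 ± 0.28 (SE), with a 95% interval from -0.98 to 0.38, and was -0.09 without chow replicate 1. With the choroid plexus marker level as a covariate it was -0.08.

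Because both subunits were read in the same libraries, their ratio does not depend on how libraries are scaled. Per unit of length, Kcnj16 stood at 0.0929, 0.168 and 0.125 of Kcnj10 in the chow libraries and at 0.183, 0.185 and 0.302 in the ketogenic ones. Every ketogenic library thus had more Kir5.1 message per Kir4.1 message than any chow library. Chow replicate 2, at 0.168, lay only narrowly below ketogenic replicates 1 and 2, at 0.183 and 0.185. The lowest ratios were in chow replicates 1 and 3, where thalamic markers were highest. The highest was in ketogenic replicate 3, which held choroid plexus. The part of brain regions in this ratio was not tested. On the log2 scale the difference was 0.80, between -2.20 ± 0.41 (SD, n = 3) on the ketogenic diet and -3.00 ± 0.43 on chow. The exact two-sided permutation test gave p = 0.1, the smallest that 3 against 3 libraries allow, and 0.3 adjusted over the 6 ratios tested.

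Aqp4 (ENSMUSG00000024411) encodes aquaporin-4, the water channel of astrocyte endfeet. It measured 54.9, 27.0 and 31.9 FPKM in the chow libraries and 16.2, 16.2 and 31.5 FPKM in the ketogenic ones. Ketogenic replicates 1 and 2 were below every chow library, and ketogenic replicate 3 was level with chow replicate 3. The log2 change was -0.82 ± 0.35 (SE), with a 95% interval from -1.67 to 0.03 (unadjusted p = 0.0559, limma adjusted p = 0.752). It was -0.52 without chow replicate 1, -1.13 without ketogenic replicate 3, and -0.30 with the thalamic marker level as a covariate.

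As for Kcnj16, the 3 libraries with most Aqp4 were those with choroid plexus markers. Among the 3 without them, chow replicate 2 measured 27.0 FPKM against 16.2 FPKM in both ketogenic libraries. Among the 3 with them, the chow libraries measured 54.9 and 31.9 FPKM against 31.5 FPKM. With the choroid plexus level as a covariate the log2 change of Aqp4 was -0.57 (unadjusted p = 0.102). Ependymal markers were high in the same 3 libraries as those of choroid plexus, so the parts of these tissues cannot be told apart. The ratio of Aqp4 to Kcnj10 overlapped between the diets (0.493, 0.807 and 0.536 on chow, 0.611, 0.576 and 1.10 on the ketogenic diet; exact permutation p = 0.5).

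Slc4a4 (ENSMUSG00000060961) encodes NBCe1, a sodium bicarbonate cotransporter by which astrocytes adjust pH inside and outside the cell. It measured 30.2, 19.1 and 16.2 FPKM in chow mice, and 10.6, 13.1 and 17.1 FPKM in ketogenic mice. The groups overlapped only by ketogenic replicate 3, which lay above chow replicate 3. The log2 change was -0.64 ± 0.27 (SE), with a 95% interval from -1.28 to 0.01 (unadjusted p = 0.0522, limma adjusted p = 0.752). Without chow replicate 1 it was -0.38, and with the thalamic marker level as a covariate -0.30. The ratio of Slc4a4 to Kcnj10 was 0.271, 0.571 and 0.272 on chow and 0.401, 0.464 and 0.596 on the ketogenic diet, again with overlap (exact permutation p = 0.3).

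Gja1 and Gjb6 encode connexin 43 and connexin 30, which form the gap junctions between astrocytes. Gja1 (ENSMUSG00000050953) measured 25.8, 17.1 and 19.5 FPKM in chow mice, and 15.2, 13.2 and 20.0 FPKM in ketogenic mice, a log2 change of -0.36 ± 0.21 (SE) with a 95% interval from -0.85 to 0.14. It was highest in the same 3 libraries as Kcnj16 and Aqp4, and its log2 change was -0.20 without chow replicate 1. Gjb6 (ENSMUSG00000040055) measured 29.9, 15.3 and 23.3 FPKM in chow mice, and 27.2, 18.5 and 24.8 FPKM in ketogenic mice. Its groups overlapped throughout and its lowest libraries were both replicates numbered 2, those with striatal markers. Its log2 change was 0.07 ± 0.26 (SE), with a 95% interval from -0.56 to 0.71, was -0.18 without chow replicate 2, and was 0.54 with the thalamic marker level as a covariate (unadjusted p = 0.0307).

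The ratio of the connexins did not overlap between the diets. There were 1.16, 0.894 and 1.20 Gjb6 per Gja1, by FPKM, in the chow libraries and 1.78, 1.40 and 1.24 in the ketogenic ones. Each ketogenic library lay above each chow library, although ketogenic replicate 3 only narrowly. The lowest ratio was in chow replicate 2, and striatal markers were high there and in ketogenic replicate 2, at 1.40. The part of brain regions in this ratio was not tested. The difference was 0.44 on the log2 scale (0.55 ± 0.27 against 0.10 ± 0.23, SD, n = 3), with an exact two-sided permutation p = 0.1 and 0.3 adjusted over the 6 ratios.

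**Figure D3:**
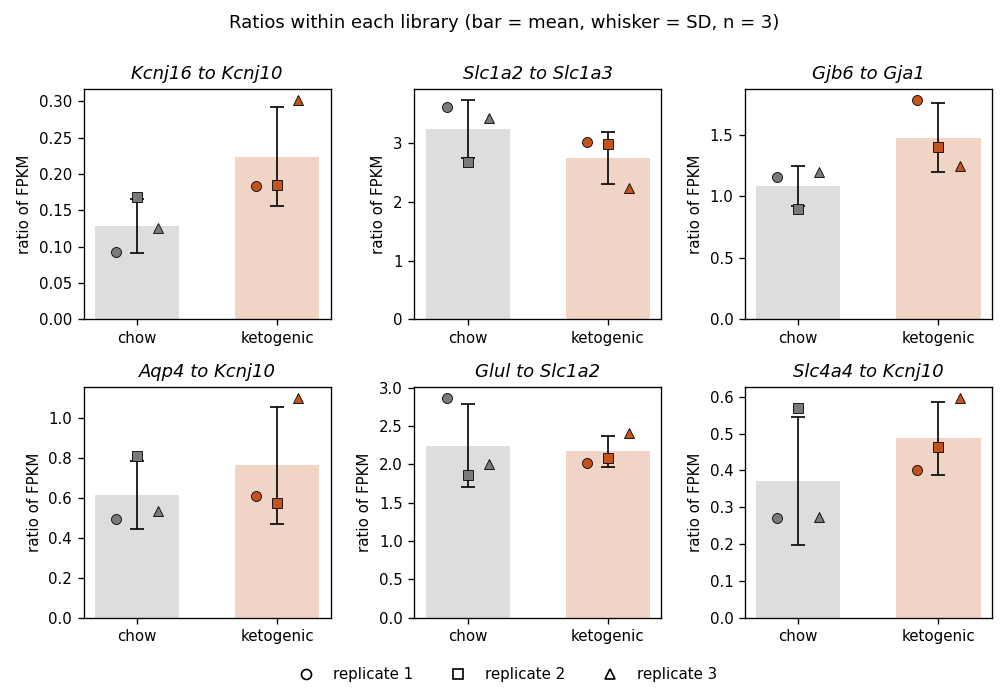
Ratio of FPKM of 2 genes within each library, on axes that start at 0; points are libraries, bars means and whiskers SD. The ratios of Kcnj16 to Kcnj10 (0.183 to 0.302 against 0.0929 to 0.168) and of Gjb6 to Gja1 do not overlap between the diets, and the other 4 overlap. The part of brain regions in these ratios was not tested.

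Slc1a2 (ENSMUSG00000005089) encodes GLT-1, the transporter that removes most of the glutamate in the forebrain. It measured 166, 197 and 208 FPKM in chow mice, and 215, 187 and 167 FPKM in ketogenic mice. The means were 190.3 ± 21.6 and 189.9 ± 24.2 FPKM (SD, n = 3), and the 95% interval of the log2 change ran from -0.34 to 0.34. Differences within these bounds are not excluded by the interval, and the smallest difference that these libraries could detect was not computed.

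Slc1a3 (ENSMUSG00000005360) encodes GLAST, the other astrocyte glutamate transporter. It measured 45.9, 73.4 and 60.6 FPKM in chow mice, and 71.4, 62.6 and 74.8 FPKM in ketogenic mice. Chow replicate 1 was the lowest library, and the other 5 overlapped. The log2 change was 0.24 ± 0.18 (SE), with a 95% interval from -0.20 to 0.67, and 0.06 without chow replicate 1. There were 3.62, 2.68 and 3.43 Slc1a2 per Slc1a3, by FPKM, on chow and 3.02, 2.98 and 2.24 on the ketogenic diet (exact permutation p = 0.3).

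Glul (ENSMUSG00000026473) encodes glutamine synthetase, which joins glutamate with ammonia. It measured 475, 366 and 416 FPKM in chow mice, and 435, 389 and 402 FPKM in ketogenic mice. All 6 libraries lay within a factor of 1.30, as those of Slc1a2 did, and the groups overlapped. The log2 change was -0.03 ± 0.13 (SE), with a 95% interval from -0.35 to 0.29. The sign of Slc1a2 and of Glul, both near 0, turned positive after centring each library on its median (0.05 and 0.02), so 5 rather than 7 genes were then lower. The ratio of Glul to Slc1a2 was 2.86 in chow replicate 1 and between 1.86 and 2.40 in the other 5 libraries (exact permutation p = 1).

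Ordered by mean FPKM over the 6 libraries, Glul came first (414), followed by Slc1a2 (190.1), Slc1a3 (64.8), Kcnj10 (47.9), Aqp4 (29.6), Gjb6 (23.2), Gja1 (18.5), Slc4a4 (17.7) and Kcnj16 (7.02). Glul was above Slc1a2, Slc1a2 above Slc1a3 and Slc4a4 above Kcnj16 with separate ranges over the libraries. The ranges of every other pair of neighbours overlapped. Kcnj10 had the widest spread, its highest library being 4.19 times its lowest, ahead of Aqp4 (3.38) and Slc4a4 (2.83).

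Set against the mean of each gene, chow replicate 1 was the highest of the 6 libraries for 7 of the 9 and the lowest for Slc1a2 and Slc1a3. Over all tested genes it was highest in 29.6% and lowest in 22%. The most alike pair was Kcnj16 and Gja1, whose centred log2 values differed by 0.13 on average over the 6 libraries, and the least alike was Kcnj10 and Slc1a3 (0.84). Next closest were Slc1a2 with Glul and with Slc1a3 (both 0.18) and Glul with Gjb6 (0.19). Genes that vary little, such as Slc1a2 and Glul, are close by this measure whatever the order of their libraries.

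**Figure D4:**
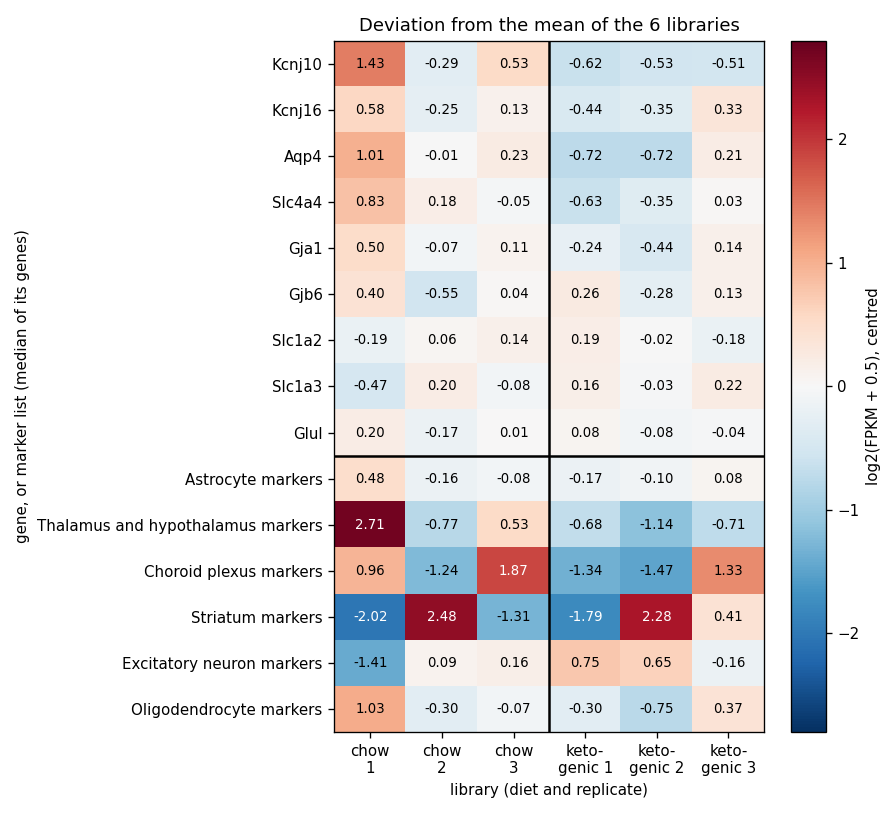
Deviation of each gene (rows above the line) and of each marker list (below it, median of its genes) from its mean over the 6 libraries, in log2(FPKM + 0.5); columns are libraries and colour and number give the deviation. Chow replicate 1 has the highest thalamic markers (2.71) and the highest Kcnj10 (1.43), and Aqp4 is at -0.72 in ketogenic replicates 1 and 2.

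Of 2866 tested genes with a spread at least that of the 9 genes' median, Efcab2, Hipk2, Myo6, Sh3tc2 and Adamts16 came nearest to the median profile, with mean absolute differences of 0.05 to 0.06 (log2) over the 6 libraries. Nearest to Kcnj10 were Rnf152 (0.08), at 8.82, 2.07 and 4.75 FPKM in chow mice, and 1.71, 2.03 and 2.22 FPKM in ketogenic mice, and the ephrin receptor Epha8 (0.14). Nearest to Aqp4 were Glp1r (0.07) and Cyp2j12 (0.09), to Slc4a4 Inpp4b (0.07) and Nipal2 (0.08), to Kcnj16 Cd63 (0.04) and Optn (0.05), to Gjb6 Tmem108 (0.07) and Galnt17 (0.10), and to Gja1 Efcab2 and Adamts16 (both 0.04). Ccdc112 (0.08) was among the nearest to Slc1a3. Slc1a2 and Glul varied less than these candidates, and their nearest genes, Rgs11 and Fgfr2, were farther off (0.158 and 0.155).

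Among 14 genes of potassium handling other than the 9, 9 were lower and 5 higher, and the median log2 change was -0.04 and none called. Atp1b2, a beta subunit of the sodium-potassium pump, measured 198, 96.8 and 124 FPKM in chow mice, and 92.2, 88.9 and 117 FPKM in ketogenic mice. Chow replicate 1 was highest, and ketogenic replicate 3 lay above chow replicate 2, so the groups overlapped. Its log2 change was -0.43, and that of the vascular potassium channel gene Kcnj8, whose groups also overlapped, was -0.33.

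Of 12 tested genes that anchor the channels at the endfoot or work beside them, 9 were lower and 3 higher, and the median log2 change was -0.13 and none called. Dag1, the dystroglycan gene of the dystrophin complex, had a log2 change of 0.04. By the rule for naming genes, Aqp11 (0.20), Sgce (-0.17) and Aqp1 (-1.11) stood first. Aqp1 is a choroid plexus gene, at 2.95, 4.99 and 3.13 FPKM in the 3 libraries with those markers and 0.369 FPKM or less in the others.

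In the glutamate and glutamine cycle, 11 of 18 genes were lower and 7 higher, and the median log2 change was -0.10 and none called. The exceptions to overlap were both system N transporters, which carry glutamine. Which cells their message came from was not tested. Slc38a3 (SNAT3) measured 14.8, 11.7 and 11.9 FPKM in chow mice, and 6.56, 10.3 and 7.63 FPKM in ketogenic mice, a log2 change of -0.63 (unadjusted p = 0.0121, limma adjusted p = 0.752). Slc38a5 (SNAT5) measured 1.60, 1.10 and 1.46 FPKM against 0.428, 0.626 and 0.482 FPKM. Its log2 change was -0.90 (unadjusted p = 0.00161, limma adjusted p = 0.752), and its ketogenic mean, 0.512 FPKM, was close to the filter of 0.5 FPKM. All ketogenic libraries were below all chow libraries in both genes, as in 7.49% of all tested genes. Slc38a1, the carrier by which neurons take up glutamine, had a log2 change of -0.43 with overlapping groups.

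Most genes of other gap junctions and their partners, and of acid-base exchange, had negative log2 changes. Of 11 tested genes of gap junctions and their partners, 9 were lower and 2 higher, and the median log2 change was -0.27 and none called. The partners were the pannexin genes Panx1 and Panx2, and Tjp1 and Cav1. Among the first by the rule for naming genes were the oligodendrocyte connexins Gjb1 (-0.75) and Gjc3 (-0.70). Both were highest in chow replicate 1, where all 6 oligodendrocyte markers were also highest and stood at 1.03, against -0.75 to 0.37 in the other libraries. The part of these markers in the result was not tested. Of 11 tested acid-base genes, 9 were lower and 2 higher (median -0.17, none called), with carbonic anhydrase Car2 at -0.60, the anion exchanger Slc4a2 at -0.48 and the bicarbonate transporter Slc4a8 at -0.17.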

How the data were processed

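The authors deposited 1 table of FPKM per gene and library. Per the labels' protocols, TRIzol RNA was selected by oligo(dT) and sequenced as random-primed paired-end libraries on an Illumina or MGI instrument. Per the submitters' processing notes, HISAT2, featureCounts of Subread and build GRCm39 were used. Versions, annotation and strand setting are not stated there, so overlapping and antisense genes may share reads. In GENCODE M21 (GRCm38), which gave the symbols (15865 of 16009 tested genes), exons of Glul share 116 bases with Teddm2 (0.554 FPKM).

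A gene's deposited FPKM values fell on whole steps in 33862 of 33862 genes above 0 (tolerance 0.001), which gave recovered reads up to a factor per gene.

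Genes whose mean FPKM reached 0.5 were fitted with limma 3.58.1 (R 4.3.3; lmFit, eBayes with a trend) on log2(FPKM + 0.5), diet as the only term, two-sided, at an adjusted p of 0.05. The pseudocount understates changes of low genes. Ratios were compared by exact permutation over libraries (scipy 1.17.1). A list's level in a library is the median deviation of its tested genes from their means. The fit was also run on simulated counts without regional differences between libraries, which cannot show how it performs on these libraries.

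The 9 genes and the lists were chosen with earlier results of these data known. The rule for named genes took all 9, the 3 smallest unadjusted p per supporting list, and the nearest profiles. Some genes this rule takes are not reported here. The alternatives were other pseudocounts (0.1 and 1), filters, scalings and weights, a replicate block, marker levels as covariates, voom, and leaving out each library.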

Additional observations from a re-analysis of the deposited data

How the results depend on the processing

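Under 21 alternatives to the main analysis of the 9 genes and of all genes, the count of genes called was 0 in every one, and the median log2 change of the 9 stayed between -0.52 and -0.06. Kcnj10 stayed negative throughout (-1.53 to -0.32, limma adjusted p of 0.395 or more), as did Aqp4 (-1.13 to -0.30), Slc4a4 (-0.82 to -0.30) and Gja1 (-0.52 to -0.05). Kcnj10 had an unadjusted p of 0.0642 to 0.0725 without chow replicate 3 or any 1 ketogenic library. Signs turned as follows, and the cause was not tested. Slc1a2 was 0.011 after rescaling to TPM and 0.051 after median centring. Glul was 0.024 after median centring, 0.014 with library quality weights, and 0.15, 0.0056, 0.0033 and 0.027 with thalamic, choroid plexus, striatal and astrocyte marker levels as covariates. With the thalamic level, Kcnj16 was 0.10 and Slc1a3 -0.061. Leaving out 1 library gave -0.10 to 0.083 for Slc1a2, -0.12 to 0.064 for Glul and -0.18 to 0.29 for Gjb6. It gave -0.011 to 0.50 for the log2 ratio of Aqp4 to Kcnj10 and -0.15 to 0.16 for that of Glul to Slc1a2. The log2 ratios of Kcnj16 to Kcnj10 (0.56 to 1.01) and of Gjb6 to Gja1 (0.30 to 0.56) stayed positive. Same-numbered libraries deviated together only for number 2 (correlations of -0.04, 0.48 and -0.21 for numbers 1, 2 and 3), so the numbers were not taken as pairs. With a replicate block 0 genes were called, and Kcnj10 stood at -1.11 (unadjusted p = 0.0322).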

Other observations

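Genes that clear inhibitory transmitters, a list outside the 9, were lower in 6 of 7 cases, at a median log2 change of -0.33, and limma called none. Slc6a11, the astrocyte GABA transporter GAT-3, measured 130.0, 32.8 and 45.7 FPKM in chow mice, and 18.9, 20.5 and 44.4 FPKM in ketogenic mice. The order of the 6 libraries, from chow replicate 1 down to ketogenic replicate 1, was the same as for Aqp4. Aldh5a1, which breaks down GABA's product, measured 20.9, 16.2 and 15.8 FPKM in chow mice, and 12.8, 13.0 and 15.6 FPKM in ketogenic mice, and its groups did not overlap, the only case among the 7, beside 7.49% of all tested genes in this direction. Maob, the astrocyte monoamine oxidase, had a log2 change of -0.33. Of 9 tested reactive astrocyte genes, 6 were lower and 3 higher, and the median log2 change was -0.07 and none called. Cp (ceruloplasmin) measured 2.57, 2.29 and 2.87 FPKM in chow mice, and 2.00, 1.95 and 2.00 FPKM in ketogenic mice (log2 change -0.30, unadjusted p = 0.0422, limma adjusted p = 0.752). Among these reactive astrocyte genes, Cp was the only one whose groups did not overlap, beside 7.49% of all tested genes in this direction. Gfap had a log2 change of 0.09 and was highest in ketogenic replicate 3 (59.2 FPKM) and lowest in ketogenic replicate 2 (17.7 FPKM).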
